A study of Homo sapiens with 20 samples.

Results

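The microRNAs (miRNAs) described here are miR-941, miR-2110, miR-4787-3p, miR-5001-3p and miR-760. They are 5 of the 2588 mature miRNAs in the count tables, and were chosen by measured values of the same data. They were taken as made with DROSHA because they were scarce in DROSHA knockout cells, and they were higher with DROSHA-p140. The knockout and p140 values below are therefore a description of how they were chosen, without a test. Only the serum experiment, whose libraries the choice did not use, is tested. Small RNA was sequenced in 20 libraries of HCT116, a human colon cancer line, and HEK293E, a line from human embryonic kidney cells. Cells of both lines lacked DROSHA (knockout, KO) and carried either full-length DROSHA or DROSHA-p140, a shorter form, with n = 3 libraries for each of these 4 groups. There was 1 library of untreated wild-type (WT) HCT116 cells and 1 of HCT116 KO cells expressing GFP, a fluorescent protein. WT HCT116 cells were also cultured for 72 hr with 9.1% or 0.1% fetal bovine serum (FBS), with n = 3 libraries each. The labels do not say whether the KO cells of a line are 1 clone, how DROSHA was expressed, or whether replicates were separate cultures, so p-values cover the spread between libraries alone, which may be technical.

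Most miRNAs are made in steps. In the nucleus the Microprocessor, DROSHA with its partner DGCR8, cuts a hairpin out of a long primary transcript, and in the cytoplasm DICER trims the hairpin to a short duplex, of which one strand is loaded into an Argonaute protein. Bases 2 to 8 of the mature strand, the seed, pair with target messages. Many miRNA hairpins lie in introns of protein-coding genes, and a small class is made without DROSHA: mirtrons, whose ends are set by splicing, and hairpins such as those of miR-320a and miR-484, whose transcripts begin or end at the hairpin.

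The mature sequences are shown because the 4 that could be matched share a high GC content and no seed. They are from RefSeq on GRCh38.p14, at the same positions as the rows of the hg38 count tables, written 5′ to 3′ with the seed in capitals. An entry for miR-5001-3p was not matched.
miR-941: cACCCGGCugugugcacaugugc
miR-2110: uUGGGGAAacggccgcugagug
miR-4787-3p: gAUGCGCCgcccacugccccgcgc
miR-760: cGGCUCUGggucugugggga
GC content was 65.2% in miR-941, 63.6% in miR-2110, 83.3% in miR-4787-3p and 70.0% in miR-760. The median over the 583 miRNAs tested in any comparison that have a sequence was 50.0% (quartiles 40.9% and 60%). The 4 seeds all differed, and 0 other mature miRNAs of the RefSeq table carried any of them.

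The hairpins are shown for the 3 members whose hairpin overlaps 0 annotated exons on either strand, with the mature arm in capitals, to show that in each the counted strand is the 3′ arm of a GC-rich stem.
mir-941-1 (chr20:63919449-63919520, plus strand): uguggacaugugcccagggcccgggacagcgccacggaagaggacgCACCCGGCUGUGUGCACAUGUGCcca
mir-4787 (chr3:50675080-50675163, plus strand): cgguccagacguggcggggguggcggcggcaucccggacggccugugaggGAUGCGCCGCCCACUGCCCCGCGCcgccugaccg
mir-760 (chr1:93846832-93846911, plus strand): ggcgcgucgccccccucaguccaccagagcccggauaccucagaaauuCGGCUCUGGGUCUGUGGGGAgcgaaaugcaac
Hairpin GC content was 68.1% for mir-941-1, 79.8% for mir-4787 and 63.8% for mir-760. It was 61.3% for mir-2110 and 69.0% for mir-5001, against a median of 52.1% over the 1562 hairpins of the RefSeq table. Predicted folding energy per base set the group apart less: it ran from -0.67 kcal/mol for mir-4787 to -0.46 for mir-2110, against a median of -0.45.

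By position, the hairpins of 4 of the 5 members begin within 250 bases of an annotated transcript start on either strand (GENCODE 29 on GRCh38), 2 of them inside the transcript. miR-2110 (chr10:114174151-114174172, minus strand) lies in an exon of CCDC186, and its hairpin begins 23 bases after a start of that gene. miR-5001-3p (chr2:232550493-232550514, minus strand) lies in an exon of TIGD1, with its hairpin 19 bases after the start, and is antisense to EIF4E2. The strand rule of the counting is not given, so reads of the overlapping exons cannot be told apart from those of the miRNA. The hairpin of miR-4787-3p (chr3:50675130-50675153) begins 161 bases before a start of DOCK3, on the same strand and outside any gene on that strand. That of miR-760 (chr1:93846880-93846899) begins 212 bases from a start of BCAR3, a gene it is antisense to, and 342 bases before the nearest start on its own strand. A start site on either strand within 250 bases was found for 14.1% of the 1562 hairpins, and the distance of 250 was chosen after these positions were seen. miR-941 is the exception. Its tandem copies lie in an intron of DNAJC5, a gene for a synaptic vesicle chaperone, and the copy used (chr20:63919495-63919517) is in a hairpin 24267 bases after that gene's start. It is the 1 intronic member, whereas 52.0% of the 1562 hairpins are intronic.

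**Figure D1:**
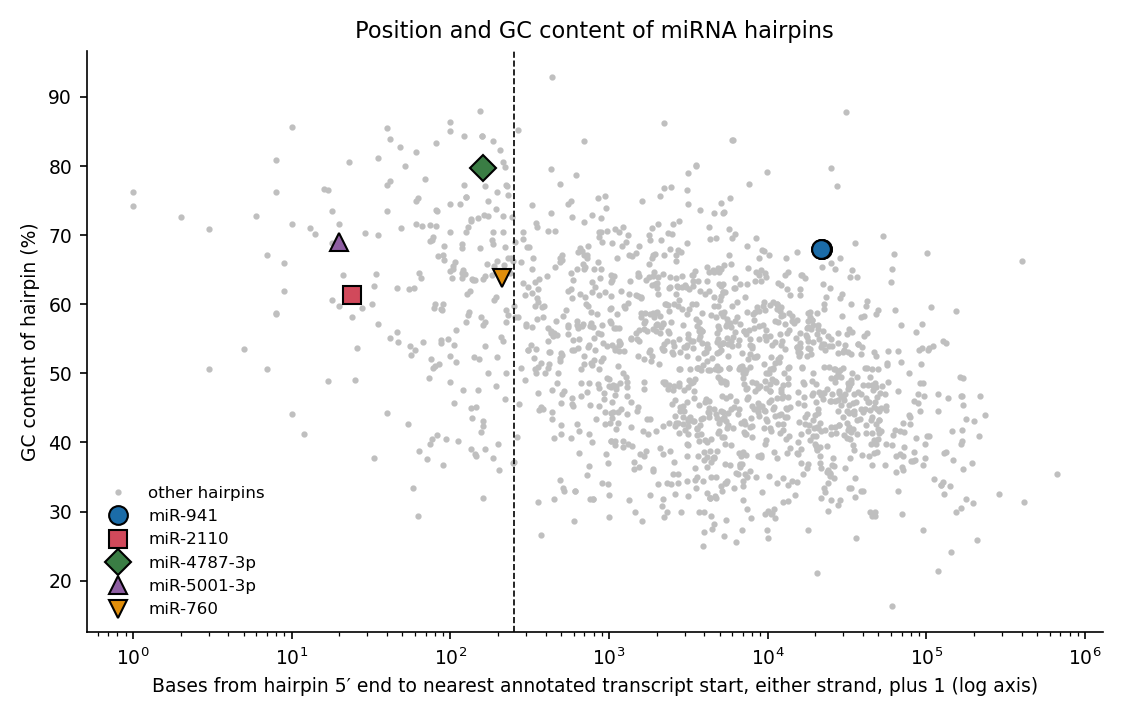
Each grey point is a hairpin of the RefSeq table; the horizontal axis is the distance in bases from its 5′ end to the nearest annotated transcript start on either strand, plus 1, on a log axis, and the vertical axis is its GC content in percent. The hairpins of miR-2110, miR-5001-3p, miR-4787-3p and miR-760 lie left of the dashed line at 250 bases, and the 4 listed copies of miR-941, which overlap on the plot, lie 21741 to 22160 bases away; all are above the median GC content of 52.1%.

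The libraries held 38288 miRNA reads (KO with GFP) to 2822317 (0.1% FBS). Depth was 764014 to 873717 reads for full-length DROSHA in HCT116 and 305603 to 327011 for p140, and in HEK293E it was 224262 to 335803 and 135085 to 246008. The DROSHA-independent list (mirtrons, miR-320a and miR-484) took 69.7% of reads in the KO with GFP and 1.27% in untreated WT. Most of these reads were miR-320a, at 611575 and 11889 CPM, so a scale set by the list follows mainly that miRNA. In HCT116 the share of the list was 2.74% to 4.98% for full-length DROSHA and 7.05% to 21.04% for p140. In HEK293E it was 10.6% to 12.3% and 15.5% to 20.01%. In HCT116 and in the serum experiment the libraries numbered 3 stood apart from the other replicates, with a chi-square per degree of freedom of 36.4 to 88.9 against 3.57 to 8.29 between replicates 1 and 2. The rescued HCT116 libraries were low in the epithelial markers miR-200c-3p and miR-141-3p of their line. With full-length DROSHA their means were 180 and 74.4 CPM, against 25988 and 11167 CPM in untreated WT. With full-length DROSHA miR-194-5p (164 against 142 CPM in untreated WT) and miR-192-5p (51.2 against 42.0 CPM) were not lower. With p140 miR-194-5p had 139 CPM and miR-192-5p 13.7 CPM. The summed level of miR-200c-3p, miR-141-3p, miR-192-5p and miR-194-5p was 445 to 487 CPM with full-length DROSHA and 260 to 352 CPM with p140, against 37339 CPM in untreated WT and 4101 CPM in the KO with GFP. In HEK293E it was 389 to 541 CPM, the range in which rescued HCT116 with full-length DROSHA lay. The sum of the HEK293E markers miR-218-5p, miR-10a-5p and miR-10b-5p was 90173 to 149454 CPM in HEK293E, 7951 to 11872 CPM in rescued HCT116 and 2311 to 4790 CPM in WT HCT116. In rescued HCT116 most of it was miR-10a-5p, with means of 9079 CPM (full-length) and 8212 CPM (p140), against 3474 CPM in untreated WT. miR-10b-5p had 753 and 972 CPM there, against 1282 CPM in untreated WT. miR-218-5p had 220 and 126 CPM in rescued HCT116, against 74670 and 40923 CPM in HEK293E. Whether the clone or the label differs cannot be told apart, which also bears on the comparison between lines. Comparisons of rescued with WT HCT116 cells are therefore given as levels only.

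Levels are given as CPM, the reads of a miRNA scaled to 1000000 miRNA reads in its library. miR-941 had the highest mean level of the 5 in each replicated group (in untreated WT miR-2110 was higher, at 99.2 against 78.2 CPM), and HEK293E cells with p140 had the highest mean of the replicated groups for each. For miR-941 the order of the replicated groups was HEK293E with p140 (3371 ± 607 CPM, SD, n = 3), HEK293E with full-length DROSHA (625 ± 171), HCT116 with p140 (526 ± 134.5), WT in 9.1% FBS (181 ± 20.9), HCT116 with full-length DROSHA (154 ± 19.3) and WT in 0.1% FBS (102 ± 10.7). HEK293E with full-length DROSHA overlapped HCT116 with p140, WT in 9.1% FBS overlapped HCT116 with full-length DROSHA, and the other neighbours were apart. miR-760 stood in 2 tiers, with 767 ± 197 and 311 ± 78.9 CPM in HEK293E and at most 82.6 CPM in any HCT116 library. miR-2110, miR-4787-3p and miR-5001-3p had narrower ranges, and their highest group means, again in HEK293E with p140, were 252 ± 91.6, 201 ± 65.6 and 81.9 ± 6.87 CPM. For miR-2110 and miR-4787-3p the libraries of the 2 p140 groups overlapped in plain CPM. The untreated WT library lay outside the range of the WT cells in 9.1% FBS for 4 of the members and inside it for miR-2110 (99.2 CPM against 92.9 to 131): miR-941 had 78.2 CPM in the former and 164 to 205 CPM in the latter, and miR-760 had 12.8 CPM against 27.3 to 38.4.

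**Figure D2:**
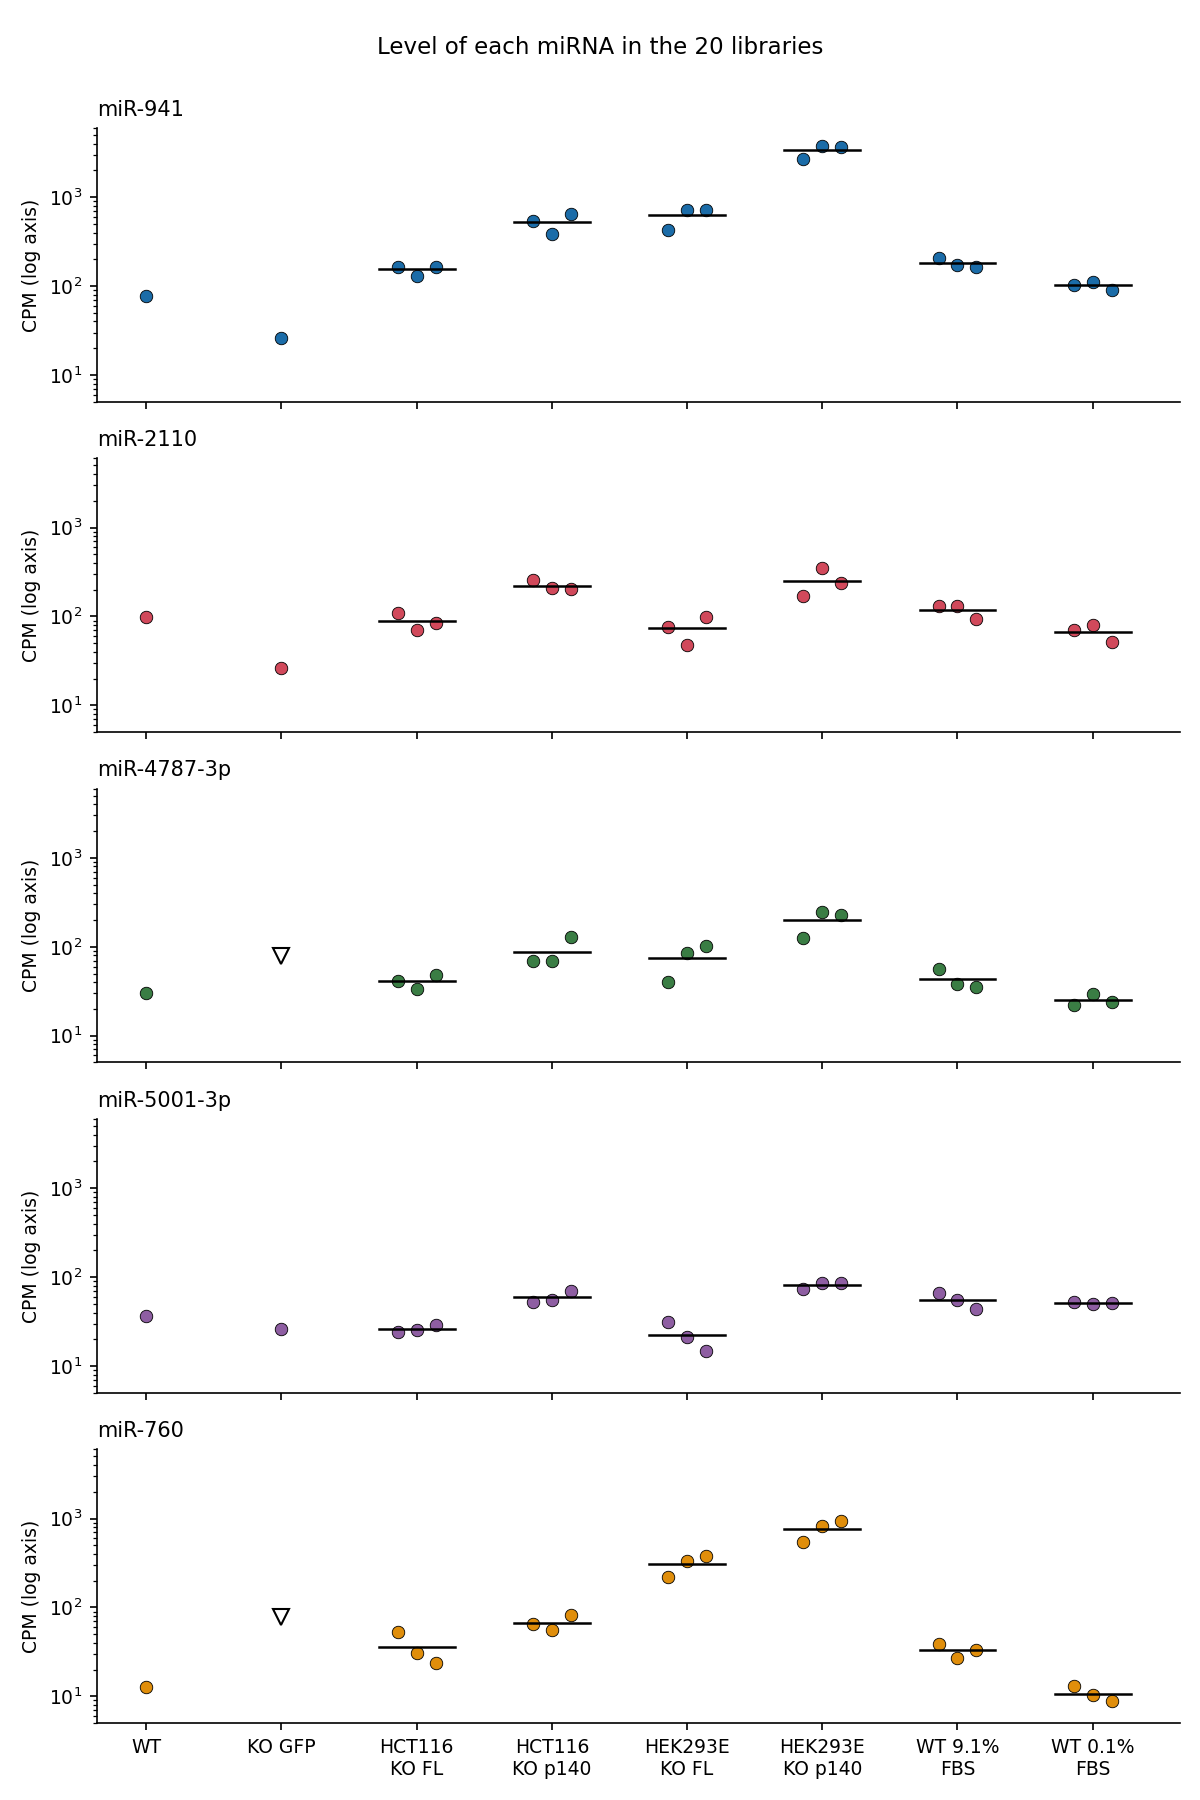
CPM of each member (log axis) in the 20 libraries by group; points are libraries, bars the mean of n = 3, and open triangles mark the level that 3 reads would give (78.4 CPM) where the KO with GFP had 0 reads. WT, untreated wild type; FL, full-length DROSHA. Within each line, every p140 library stands above every full-length library for all 5 miRNAs.

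How scarce the members are in cells without DROSHA can be seen only in part, because the KO with GFP library is shallow. It held 1 read each of miR-941, miR-2110 and miR-5001-3p and 0 of miR-4787-3p and miR-760. Untreated WT held 67 reads of miR-941, 85 of miR-2110, 31 of miR-5001-3p, 26 of miR-4787-3p and 11 of miR-760. In CPM that is 26.1 in the KO (exact Poisson interval 0.66 to 146) against 78.2 in WT (60.6 to 99.3) for miR-941, and 26.1 against 99.2 (79.3 to 123) for miR-2110. For miR-5001-3p it is 26.1 against 36.2 CPM, a ratio of 0.722 with an exact conditional binomial interval of 0.0177 to 4.33. For the 2 members at 0 reads, 3 reads would be 78.4 CPM and the exact Poisson upper limit was 96.3 CPM, both above their WT levels of 30.4 and 12.8 CPM. In CPM, then, the interval of the ratio of KO to WT lay below 1 for 0 of the 5 members, where it did for 42.9% of the 387 miRNAs with at least 10 WT reads, and scarcity on this scale was not detectable at this depth.

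Set against the DROSHA-independent list in the same libraries, all 5 were lower in the KO. At their WT level relative to that list, 165 reads of miR-941 would have been counted in the KO, 209 of miR-2110, 76.3 of miR-5001-3p, 64.0 of miR-4787-3p and 27.1 of miR-760, where 0 or 1 were. The KO to WT ratio on this scale was 0.00606 for miR-941 (95% interval 1.5e-04 to 0.0350), 0.00478 for miR-2110 and 0.0131 for miR-5001-3p. With 0 reads set to 3, the bound was at least 21.3-fold lower for miR-4787-3p and at least 9.03-fold lower for miR-760. The exact interval, which also takes in the counting error of WT, reached down to 16.2-fold and 6.18-fold. The interval lay below 1 for 5 of 5 members and for 96.1% of the 387 miRNAs. Scarcity in the knockout chose the members, so these counts describe the 2 libraries and nothing is read from them. These are 1 library against 1, and intervals cover counting error only. Whether random adaptor bases were used to tell molecules apart is not given, so reads need not be separate molecules.

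In HCT116 cells every p140 library stood above every full-length library for all 5 members. This contrast is part of how they were chosen. miR-941 had 165, 132 and 165 CPM in the full-length libraries and 537, 386 and 654 CPM with p140, a log2 fold change of 1.68 ± 0.23 (standard error, edgeR, TMM scale). miR-2110 had 110, 69.8 and 83.8 CPM and then 254, 209 and 205 CPM, a log2 fold change of 1.27 ± 0.26. Neither pair of groups overlapped. miR-4787-3p had 41.6, 33.2 and 48.4 CPM with full-length DROSHA and 68.4, 68.7 and 128 CPM with p140 (log2 fold change 1.01 ± 0.33). miR-5001-3p had 24.0, 25.2 and 28.8 CPM and then 52.1, 55.6 and 70.3 CPM (1.10 ± 0.28). The high p140 library of miR-4787-3p was replicate 3, and without that library its log2 fold change was 0.61. miR-760, with 53.0, 30.9 and 23.6 CPM against 65.1, 55.6 and 82.6 CPM, had the narrowest gap, at 0.84 ± 0.36. It was 0.49 without full-length replicate 3, and on the TMM scale the groups overlapped without that library, p140 replicate 1 (0.82) or p140 replicate 3 (0.62).

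The 5 were not unusual among the miRNAs higher with p140 in HCT116. Their log2 fold changes lay below the median of the list made without DROSHA, though that of miR-941 was close to it. Groups did not overlap, with p140 higher, for 28.7% of the 446 miRNAs tested. The members ranked 82 to 122 from the top. All 14 tested members of the DROSHA-independent list rose (28.5% of all miRNAs tested were called higher, 31.2% lower and 59.6% in either direction), with a median log2 fold change of 1.87 against -0.11 over all miRNAs tested. miR-877-5p, a mirtron of ABCF1, rose by 2.09 ± 0.47 and miR-320a by 1.90 ± 0.46 (edgeR's quasi-likelihood test, Benjamini-Hochberg adjusted p = 0.00897 and 0.0103). On a scale set by that list, which lowers the median of all miRNAs by 1.52, the fold change of miR-941 was 0.18 and the signs of the other 4 turned: -0.39 for miR-2110, -0.45 for miR-4787-3p, -0.49 for miR-5001-3p and -0.63 for miR-760. On it 0 of the 5 had p140 libraries all above the full-length ones, as had 0.897% of the miRNAs tested. The turned signs lay within the spread between replicates and are not resolved. Per 1000 reads of the list, miR-2110 had 2.26 ± 0.76 with full-length DROSHA and 1.74 ± 1.01 with p140 (SD). miR-760 had 0.87 ± 0.19 and 0.59 ± 0.50. Higher in HCT116 thus holds relative to the bulk of miRNA reads. Relative to the miRNAs made without DROSHA, neither a rise nor a fall was resolved.

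In HEK293E cells the members stood at the top of the table, which is how they came to be listed. miR-941 had 428, 721 and 727 CPM with full-length DROSHA and 2672, 3770 and 3671 CPM with p140, a log2 fold change of 2.52 ± 0.23 and the highest of the 416 tested. miR-5001-3p had 31.2, 21.5 and 14.9 CPM and then 74.0, 86.4 and 85.4 CPM (1.97 ± 0.39). miR-2110 had 75.8, 47.2 and 98.3 CPM and then 170, 351 and 236 CPM (1.84 ± 0.37). In each case the lowest p140 library stood above the highest full-length library. miR-4787-3p had 40.1, 85.9 and 101 CPM and then 126, 248 and 228 CPM (1.48 ± 0.38). miR-760 had 223, 335 and 375 CPM and then 548, 821 and 931 CPM (1.39 ± 0.26). The lowest library of both was replicate 1 with either form of DROSHA, so the difference within a replicate number was larger than the gap between the groups. Counts behind these values are small: in the full-length libraries miR-5001-3p had 5 to 7 reads, miR-2110 had 11 to 33 and miR-4787-3p had 9 to 34.

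Groups were apart with p140 higher for 13.7% of the 416 miRNAs tested in HEK293E. Here the members stood above the DROSHA-independent list, of which 3 of 11 tested members rose and 0 fell (5.29% and 21.2% of all miRNAs tested), at a list median of 0.57. miR-877-5p rose by 0.81 ± 0.15 and miR-320a by 0.77 ± 0.15 (edgeR, adjusted p = 0.00279 and 0.00409). On the scale of that list, which lowers the median of all miRNAs by 0.70, the members kept positive log2 fold changes: 1.77 for miR-941, 1.27 for miR-5001-3p, 1.09 for miR-2110, 0.73 for miR-4787-3p and 0.66 for miR-760. The groups of the first 3 stayed apart on it, against 1.2% of all miRNAs tested. Per 1000 reads of the list, miR-941 had 3.49, 6.54 and 6.88 reads with full-length DROSHA and 15.2, 18.8 and 23.7 with p140 in HEK293E. In HCT116 the same ratio was 3.32, 2.89 and 6.01 and then 2.55, 2.04 and 9.29, with replicate 3 high in both groups.

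**Figure D3:**
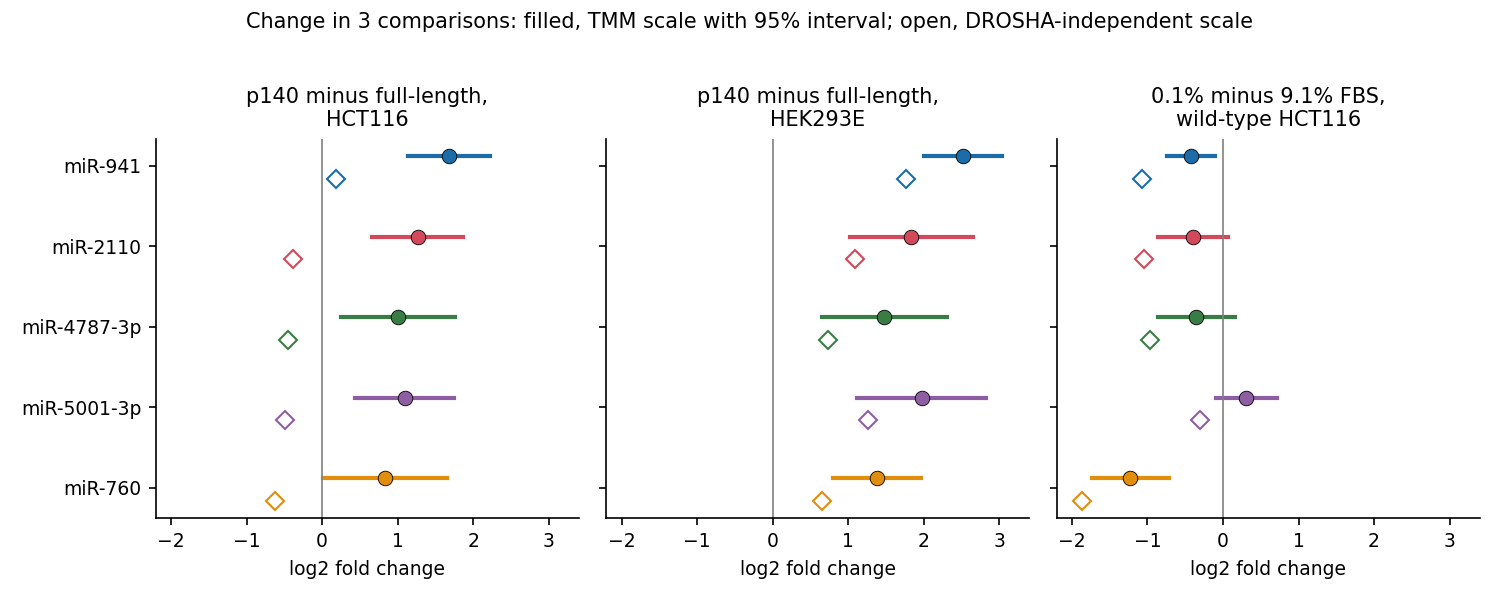
Log2 fold change of each member in 3 comparisons; filled points with bars are edgeR estimates on the TMM scale with 95% intervals, and open diamonds the estimates when libraries are scaled to the DROSHA-independent list. In HCT116 the diamonds of 4 members fall below 0, in HEK293E all 5 stay above 0 (0.66 to 1.77), and in low serum 4 of 5 filled points lie below 0, with miR-760 lowest.

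The 2 lines differed in the levels of 4 of the 5 members with full-length DROSHA, in opposite directions. miR-760 was higher in HEK293E by 2.10 ± 0.33 and miR-941 by 1.01 ± 0.24 on the log2 scale, and miR-2110 and miR-5001-3p were lower by log2 differences of -1.23 ± 0.34 and -1.25 ± 0.35. The libraries of these 4 did not overlap on the TMM scale of the 12 rescued libraries, nor did those of 70.5% of the 515 miRNAs in that fit. In plain CPM, miR-2110 and miR-5001-3p overlapped between the lines with full-length DROSHA. For miR-4787-3p the lines overlapped on both scales, with a difference of -0.10 ± 0.37. With p140 the differences were 2.60 ± 0.33 for miR-760, 1.78 ± 0.24 for miR-941, 0.30 ± 0.36 for miR-4787-3p, -0.43 ± 0.31 for miR-5001-3p and -0.72 ± 0.31 for miR-2110. Again all but miR-4787-3p were apart, as were 57.7% of the 515. The sign for miR-2110 and miR-5001-3p depends on the scale, since with p140 their mean CPM was higher in HEK293E (252 against 223 and 81.9 against 59.4). The p140 estimate was larger in HEK293E for all 5, by 0.82 ± 0.47 for miR-5001-3p, 0.77 ± 0.34 for miR-941, 0.51 ± 0.46 for miR-2110, 0.50 ± 0.47 for miR-760 and 0.40 ± 0.52 for miR-4787-3p. For the last 3 the standard error was about as large as the difference, which is not resolved. That of miR-5001-3p is not resolved either, and rests on 5 to 7 reads in the HEK293E full-length libraries. These differences use the contrasts on which the members were chosen, so they were not tested.

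GC content moved with the p140 contrast, most in HCT116. Among the other tested miRNAs there, 103 with a mature GC content over 60% had a median log2 fold change of 1.57 and 283 with 60% or less had -0.33. In HEK293E the medians were 0.22 (88 miRNAs) and -0.05 (274 miRNAs). The members with a sequence, at 63.6% to 83.3%, lay below the median of such miRNAs in HCT116 except for miR-941, and well above it in HEK293E. The GC classes kept the DROSHA-independent list in, which rose in HCT116. Among those over 60% GC were miR-877-5p (2.09 in HCT116) and miR-484 (1.70). The part of that list in the medians was not tested. Hairpins within 250 bases of a transcript start had medians of 0.30 in HCT116 (71 miRNAs) and 0.17 in HEK293E (55 miRNAs), against -0.30 and -0.07 for those farther away. Read depth was lower with p140 in HCT116, and also in HEK293E though with overlapping ranges, as given above. The part of GC content, position and depth in the members' values was not tested.

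**Figure D4:**
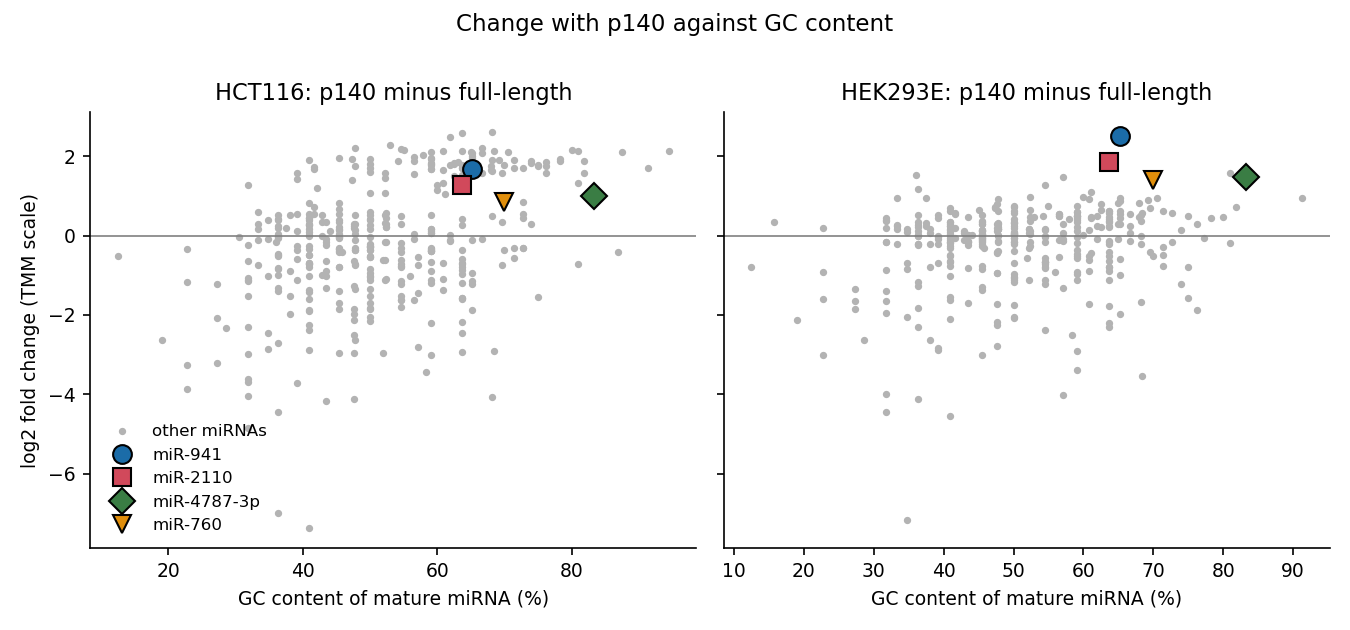
Log2 fold change of p140 against full-length DROSHA (TMM scale) by the GC content of the mature miRNA in percent, for each tested miRNA with a RefSeq sequence (grey) and the 4 members that have one. In HCT116 many GC-rich miRNAs lie near or above the members; in HEK293E the 4 members, at 1.39 to 2.52, lie at the upper edge.

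A list of intronic miRNAs lost with p140, compiled from earlier results of these data for its loss in these contrasts and so no independent evidence, was called lower in 10 of 10 tested members in HCT116 and 12 of 12 in HEK293E (edgeR; 31.2% and 21.2% of all miRNAs tested), with median log2 fold changes of -3.66 and -3.01. miR-1296-5p, from an intron of JMJD1C, had 394 CPM with full-length DROSHA and 20.1 CPM with p140 in HCT116, and 1271 and 46.9 CPM in HEK293E. miR-941, also intronic, was higher with p140 in the same libraries.

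In the serum experiment, which the choice of members did not use, the members did not rise together as in the p140 contrast. The comparison asks what 72 hr in 0.1% FBS does to miRNA levels of WT HCT116 cells. miR-760 fell and miR-941 fell less, while miR-2110, miR-4787-3p and miR-5001-3p did not pass the test. Of the 577 miRNAs tested 45.8% were called at an adjusted p under 0.05 (25.5% higher and 20.3% lower in 0.1% FBS), so 2 called of 5 is near the background. Groups did not overlap, low serum higher, for 28.1%, and low serum lower for 26.9%.

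miR-760 had 38.4, 27.3 and 33.2 CPM in 9.1% FBS and 13.0, 10.3 and 8.86 CPM in 0.1% FBS. The highest library in low serum was under the lowest in normal serum. Its log2 fold change was -1.23 ± 0.22 (95% interval -1.74 to -0.72, adjusted p = 0.00282, edgeR's quasi-likelihood test with Benjamini-Hochberg adjustment), and it was lower in 3 of 3 libraries. It passed in all 14 alternatives run, at -1.87 to -1.08, with adjusted p-values up to 0.0221.

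miR-941 had 205, 174 and 164 CPM and then 104, 111 and 90.0 CPM, also without overlap. The log2 fold change was -0.42 ± 0.14 (adjusted p = 0.0359, edgeR). Its call rested on single libraries: it was lost when any library except replicate 3 in 9.1% FBS was left out, with log2 fold changes of -0.38 to -0.46 and adjusted p = 0.0669 to 0.0764. Over all alternatives the adjusted p ran from 7.8e-04 to 0.147.

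The other members were less clear. miR-2110 had 131, 130 and 92.9 CPM and then 70.7, 80.0 and 52.1 CPM, and miR-4787-3p had 55.6, 38.0 and 35.3 CPM and then 22.1, 29.3 and 24.1 CPM. Their log2 fold changes were -0.40 ± 0.20 (interval -0.86 to 0.067, adjusted p = 0.143, edgeR) and -0.35 ± 0.22 (interval -0.86 to 0.15, adjusted p = 0.224). Both are lower in plain CPM without overlap of the groups, and overlap on the TMM scale. miR-5001-3p had 66.5, 55.1 and 44.1 CPM and then 53.2, 49.9 and 51.4 CPM, so its low-serum libraries lay within the range of the others. On the TMM scale it stood higher in low serum without overlap of the groups, at 47.9 ± 9.12 CPM in 9.1% FBS and 59.3 ± 1.82 CPM in 0.1% FBS. Its log2 fold change was 0.31 ± 0.18 and did not pass (interval -0.093 to 0.71, adjusted p = 0.185, edgeR).

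The scale matters here, since library totals without TMM lower the median of all miRNAs by 0.41 and the DROSHA-independent scale lowers it by 0.63. On these scales miR-2110 and miR-4787-3p passed too, and miR-5001-3p turned to -0.10 and -0.30 without passing (adjusted p = 0.651 and 0.288, edgeR). The second scale follows mainly miR-320a, which itself rose in low serum by 0.82 ± 0.17, where the median of the list was -0.37. It is therefore not a steady reference in this experiment. Replicate numbers were also taken as pairs, though in this experiment a pairing is clear for number 3 only. With the replicate number as a block 4 of 5 members were called, against 63.6% of all miRNAs tested. miR-2110 then had an adjusted p of 0.00441 and miR-5001-3p of 0.0440, at log2 fold changes of -0.40 and 0.33 (edgeR with the block). Over their alternatives the adjusted p ran from 0.00317 to 0.347 for miR-2110, 0.0113 to 0.510 for miR-4787-3p and 0.0440 to 0.720 for miR-5001-3p.

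In low serum the DROSHA-independent and intronic lists were mixed and the marker lists were higher, where 25.5% of all miRNAs tested were called higher and 20.3% lower. Of the DROSHA-independent list 2 of 9 tested members rose and 3 fell, with miR-320a at 0.82 ± 0.17 and miR-877-3p at -0.92 ± 0.22 (edgeR, adjusted p = 0.00482 and 0.00849). Of the intronic list 4 of 11 rose and 3 fell. The HCT116 markers rose in 4 of 4 and the HEK293E markers in 3 of 3 tested members, with median log2 fold changes of 1.09 and 0.99. Blood cell markers, of which 3 of 4 tested members rose, summed to 55.6 to 76.8 CPM in 9.1% FBS and 187 to 210.5 CPM in 0.1% FBS, and none of the 4 most abundant, miR-486-5p, miR-142-3p, miR-142-5p and miR-451a, was at 0 in either group mean. The part of other cells or of serum RNA in the members' values was not tested.

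For miR-4787-3p and miR-5001-3p the tables also list the other arm of the hairpin, which was rare. miR-4787-5p had 34 reads over the 20 libraries against 805 for miR-4787-3p, which thus took 95.9% of the reads of both arms. miR-5001-5p had 61 against 879, and miR-5001-3p took 93.5%. The counted arm took 94.0% and 96.7% of the reads of mir-4787 in HEK293E with full-length DROSHA and with p140, and 97.1% and 95.5% in HCT116. The 5p arms, at 1 to 8 reads summed over the libraries of each rescued group, were too few for a comparison.

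Across the 8 groups, the miRNA whose profile was nearest to the mean profile of the members was miR-548a-3p. Nearness was the root mean square difference of log2(CPM + 1) group means, each profile centred on its own mean, over 1053 miRNAs with at least 10 CPM in a group. It was 0.35 for miR-548a-3p, followed by miR-3663-3p (0.50), miR-3944-3p (0.52), miR-3607-3p (0.56) and miR-93-3p (0.60), against a median of 2.02. The members themselves lay 0.64 to 1.32 from their mean, farther than these 5. miR-548a-3p had a log2 fold change of 1.51 with p140 in HEK293E, without overlap, and miR-93-3p had 0.21 there and 0.11 in HCT116. The nearest to single members were miR-3074-3p for miR-941 (0.43), miR-126-3p for miR-2110 (0.58), miR-193a-3p for miR-4787-3p (0.47), miR-30c-1-3p for miR-5001-3p (0.59) and miR-30a-3p for miR-760 (0.63). Several of these had too few reads to be tested in HCT116 or HEK293E, so nearness rests in part on low counts.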

How the data were processed

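TRIzol RNA was mixed with spike-in RNAs, size-selected, ligated to randomized adaptors and run on a MiSeq, per the labels' protocols. The submitters' processing notes name cutadapt, STAR, bedtools and hg38. Tool versions, annotation release, strand rule, use of the random adaptor bases and the handling of reads with several positions: not given in the sources used here. Deposited values are the authors' raw counts per annotated miRNA. The copy with the highest total was kept; the 5 copies of miR-941 had equal counts. All 5 members passed the count filter in each comparison. Members and lists were chosen with earlier results of these data known. The nearest profiles, the other hairpin arms and the 4 most abundant members of each list were named by rule.

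Each comparison was fitted over the whole table in R 4.3.3 by edgeR 4.0.16 (quasi-likelihood test, TMM, filterByExpr with a minimum count of 10, Benjamini-Hochberg, threshold 0.05, two-sided), after a check on simulated counts. DESeq2 1.42.0, other scalings, no filter, a joint fit, left-out libraries and a replicate block were alternatives. Libraries with the same replicate number deviated together (r over miRNAs of 0.13 to 0.66 in the serum experiment, 0.30 to 0.62 in HCT116 and 0.27 to 0.43 in HEK293E). Libraries numbered 1 and 2 also did so across numbers, at 0.47 and 0.24 in the serum experiment and 0.23 and 0.30 in HCT116. Outside HEK293E a pairing is therefore clear for number 3 only. The numbers were taken as pairs for the block, and no label says why they would be. Hairpins were folded with RNAfold 2.7.2 and placed on GENCODE 29.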

Additional observations from a re-analysis of the deposited data

How the results depend on the processing

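The number of members called in the serum experiment, 2 of 5, became 4 with library totals, 4 on the DROSHA-independent scale, 4 with the replicate block, 1 without a count filter and 1 in the joint fit of 18 libraries, and ranged from 1 to 3 when single libraries were left out. The sign of miR-5001-3p turned there on the first 2 of these scales (-0.10 and -0.30). Members with p140 libraries all above the full-length ones, 5 in each line, became 0 in HCT116 and 3 in HEK293E on the DROSHA-independent scale, where miR-2110 (-0.39), miR-4787-3p (-0.45), miR-5001-3p (-0.49) and miR-760 (-0.63) turned in HCT116. These turned values lay within the spread between replicates. Leaving out single libraries gave 4 to 5 in HCT116 and 5 in each case in HEK293E. Members whose interval of the KO to WT ratio lay below 1, a description of the libraries that chose them, were 0 in CPM, 5 on the DROSHA-independent scale (as 96.1% of all miRNAs compared) and 1 (miR-941) against the 9.1% FBS libraries. The block changed no other call of a member. With both libraries numbered 3 left out, an alternative chosen after seeing the data, 3 members were called in the serum experiment and 4 were apart in HCT116. Over all miRNAs the block raised the calls from 110 to 183 in HEK293E, from 266 to 326 in HCT116 and from 264 to 367 in the serum experiment. DESeq2 called the same number of members, 2, in the serum experiment. Causes were not tested. Depth limits the KO with GFP most, at 78.4 CPM for 3 reads.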
